A study of Saccharomyces cerevisiae with 18 samples.

Results

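Levels of gene expression reached under Congo Red were compared between swi3 and rlm1 mutants of the budding yeast Saccharomyces cerevisiae. The comparison takes the 3 arrays of swi3 cells and the 3 arrays of rlm1 cells exposed to the dye, chosen by their sample titles, out of 18 arrays in the series. All strains are labelled BY4741, a haploid laboratory strain of mating type a. The swi3 cells, the rlm1 cells and the wild type were each grown for 4 hours with 30 µg/ml Congo Red, or for the same time without it. The series design describes the 3 arrays of a group as separate biological samples, each from total RNA of a culture. The labels name the mutants only as swi3 and rlm1, and whether each mutant is 1 clone is not stated there. Differences below are swi3 minus rlm1 on the log2 scale, with the standard error (SE) of the fit and n = 3 arrays in each group.

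Congo Red binds chitin and glucan and disturbs the assembly of the yeast cell wall. Wall damage is sensed at the cell surface and passes through Rho1, protein kinase C and a MAP kinase cascade that ends in the kinase Slt2. Slt2 activates the transcription factor Rlm1, which drives genes of wall proteins and wall enzymes. Swi3 is a core subunit of SWI/SNF, a complex that uses ATP to slide or evict nucleosomes at promoters and is known for its part in the induction of phosphate, sugar and mating-type genes. The comparison sets a mutant of a chromatin remodeller against a mutant of a sequence-specific activator, both under the same wall stress.

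The transcript that each strain is named for was low in it. SWI3 had levels of 3.57, 3.77 and 3.52 on the swi3 arrays, against 9.08, 9.68 and 9.56 on the rlm1 arrays. RLM1 had levels of 10.55, 10.40 and 10.71 on the swi3 arrays, against 5.18, 4.34 and 4.62 on the rlm1 arrays. The groups lie far apart for both genes, and the wild type under the dye averaged 9.28 for SWI3 and 10.26 for RLM1. Among their tested neighbours in assembly R64, RPL17B (-0.12) and KRE9 (0.08) beside SWI3 were not called, whereas YPL088W beside RLM1 was higher in swi3 by 1.47 ± 0.15 (SE, n = 3). An effect of the mutation on that neighbour was not tested.

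The arrays differed in ways that the strains' names do not give. Before normalization the median log2 level was 9.66 to 9.69 on the swi3 arrays, against 9.98 and 10.01 on 2 rlm1 arrays and 9.265 on rlm1 number 1. The 25S ribosomal RNA probe sets stood between 6.73 and 8.55 on the swi3 arrays and between 10.93 and 12.46 on the rlm1 arrays. In the wild type with the dye they stood between 7.64 and 9.52. Control genes with probe sets at both ends gave a 3' minus 5' difference of 0.80 to 0.87 in swi3 and 0.76 to 1.03 in rlm1, highest on rlm1 number 1. One reporter probe set stood at 13.51 to 13.68 on all 6 mutant arrays and at 4.51 to 4.89 in the wild type with the dye. Without the dye it stood at 13.65 to 13.72 in the mutants and at 4.57 to 4.87 in the wild type. Chromosome III stood apart as a whole: its 147 tested features had a median difference of 0.72, against medians between -0.08 and 0.04 on the other chromosomes. The part of these measures in the gene results was not tested, and named genes on chromosome III are marked as such. In these bulk cultures, fewer cells of a kind and less RNA per cell cannot be told apart.

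Of 5660 features tested, 37% differed between the strains under the dye (adjusted p under 0.05, limma), with 1053 higher (18.6%) and 1041 lower (18.4%) in swi3. At least 2-fold differences were called for 272 features higher (4.81%) and 164 lower (2.9%). The median difference of all features was -0.03, and the 3 arrays of one strain lay outside the range of the other for 47.8% of features. Without rlm1 number 1 the counts were 957 higher and 925 lower, and on the deposited values, with no further normalization, they were 381 and 534. Gene lists below are read against these shares. Of 47 reporter probe sets, 33 never reached a level of 7. Where one strain lies below that level, the size of the difference is uncertain and depends on the scale. SPO20, low in rlm1, differed by 2.71 here and by 2.43 after median centring. SPO22, low in both strains, changed more, with 0.958 here and 0.425 after median centring, where its call was lost.

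The 14 genes with the largest differences in each direction came from several functions. They were ranked on the brightest probe set of each gene, and a dimmer probe set of TPO2 (5.05) lay above the first of them. Among the genes higher in swi3, PRR2, a protein kinase, led this ranking with levels of 9.87, 10.07 and 9.69 on the swi3 arrays, against 5.04, 6.02 and 5.86 on the rlm1 arrays. The wall protein gene PIR3 had levels of 11.02, 10.89 and 11.70 in swi3, against 7.02, 7.05 and 6.98 in rlm1. PUT4, the proline permease, had levels of 10.36, 10.10 and 9.95 in swi3, against 6.51, 6.21 and 6.08 in rlm1. In each of these the swi3 arrays were all high and the rlm1 arrays all low, and the differences were 4.24 ± 0.24, 4.19 ± 0.21 and 3.87 ± 0.14 (SE, n = 3). For PIR3 the wild type under the dye was high as well, at 12.51 ± 0.40 (SD, n = 3), and lay above every swi3 array. For PRR2 and PUT4 it was low like rlm1, at 6.02 ± 0.13 and 6.28 ± 0.09.

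The others at the top were of mixed function. HBN1, a gene of the nitroreductase family on chromosome III, was higher by 3.75 ± 0.17, and ECM13 by 3.37 ± 0.21. HUG1, an inhibitor of ribonucleotide reductase, was higher by 3.35 ± 0.43 and RNR3, an alternative large subunit of that enzyme, by 3.30 ± 0.26. RCK1, a kinase of the oxidative stress response, was higher by 3.33 ± 0.30, and SOL4, a 6-phosphogluconolactonase, by 3.33 ± 0.16. SET4, which encodes a SET domain protein, was higher by 3.22 ± 0.18, the homoserine acetyltransferase gene MET2 by 3.09 ± 0.14, and HSP12, a small membrane heat shock protein, by 3.10 ± 0.51. SNO4 (3.36) and the maltase gene MAL32 (3.21) were measured by probe sets shared with related sequences, so their signal cannot be assigned to 1 gene.

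On the lower side the largest difference of all features was in PHO84, the high-affinity phosphate transporter. It had levels of 6.18, 6.36 and 5.71 on the swi3 arrays, against 13.74, 13.73 and 13.70 on the rlm1 arrays, a difference of -7.63 ± 0.19 (SE, n = 3). The swi3 arrays lay at the level of reporter probe sets, and the wild type (13.71 ± 0.12, SD) lay with rlm1. HO, the mating-type switching endonuclease, had levels of 5.87, 6.09 and 6.17 in swi3, against 10.74, 10.84 and 10.91 in rlm1. ARO10, the phenylpyruvate decarboxylase of the Ehrlich pathway, had levels of 4.61, 5.24 and 4.94 in swi3, against 9.95, 10.02 and 10.14 in rlm1. Both were lower on every swi3 array, and the differences were -4.79 ± 0.15 for HO and -5.11 ± 0.19 for ARO10. Their size is uncertain, since the swi3 levels lay under 7. DIP5, the acidic amino acid permease, was at -4.42 ± 0.28, and GPX2, a glutathione peroxidase, at -4.00 ± 0.23. The secreted glycoprotein YGP1 was at -3.56 ± 0.19 and the membrane protein YRO2 at -3.72 ± 0.26.

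**Figure D1:**
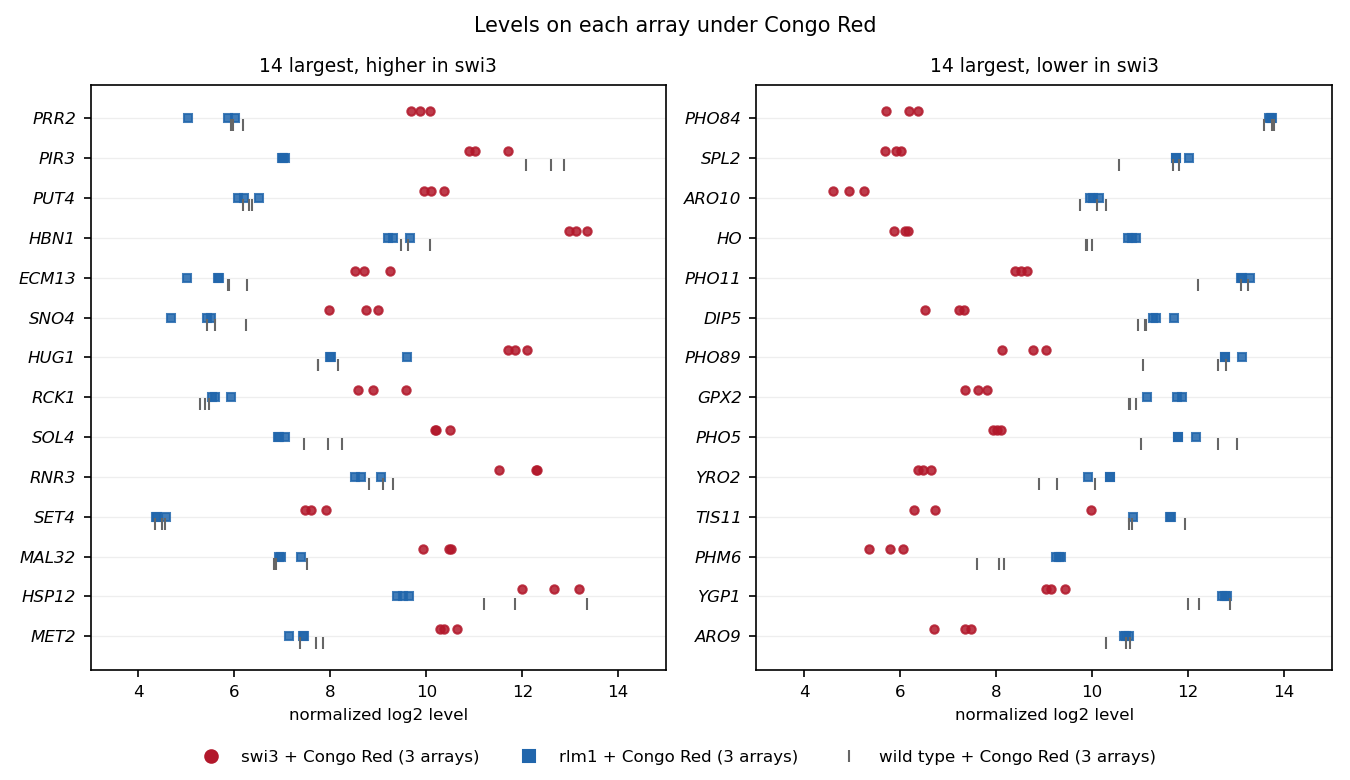
Normalized log2 levels (horizontal axis) on each of the 3 swi3, 3 rlm1 and 3 wild-type arrays with Congo Red, for the 14 genes with the largest difference in each direction between swi3 and rlm1. Genes were chosen so that the swi3 and rlm1 points do not overlap. The wild type lies near rlm1 for most and far above it for PIR3 and HSP12, and TIS11 has one swi3 array at 9.97 and the others at 6.73 and 6.29.

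Targets linked to Rlm1 ask how far the transcripts of its pathway differ between a mutant of the activator and a mutant of the remodeller. Of 24 listed genes, 23 were measured and all passed the filter on low values. In swi3, 16 were higher (18.6% of all features were), 2 were lower and 5 were not called, with a median of 0.62 against -0.03 for all features. The mean level over the 23 genes was 11.62 to 11.78 on the swi3 arrays and 10.86 to 11.02 on the rlm1 arrays. On the 6 arrays alone 13 were higher and 2 lower, since SLT2 (adjusted p = 0.0564), CIS3 (0.0946) and BAG7 (0.0511) lost their call. Without the dye 10 were higher and 5 lower.

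Among the wall proteins of this group, CWP1, a major mannoprotein of the wall, had levels of 13.60, 13.63 and 13.75 in swi3, against 12.01, 12.36 and 12.35 in rlm1. The swi3 arrays lay above the rlm1 arrays throughout and next to the wild type at 13.47 ± 0.01 (SD, n = 3), with a difference of 1.42 ± 0.09 (SE). SED1, an abundant structural protein, was higher by 0.48 ± 0.10, and CIS3, a relative of PIR3, by 0.19 ± 0.05. Of the other relatives of PIR3, PIR1 was lower in swi3 (-0.40 ± 0.06) and HSP150 was not called (0.12 ± 0.07). CCW14, another wall glycoprotein, was not called either (0.14 ± 0.06). SVS1, a serine- and threonine-rich wall protein, was lower (-1.10 ± 0.12). PST1 was not called at -0.20 ± 0.11, with levels of 10.75, 10.81 and 11.003 in swi3, against 10.93, 11.09 and 11.14 in rlm1. These ranges overlap, and both lie under the wild type at 12.55 ± 0.20 (SD).

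Among enzymes of the wall, the aspartic protease YPS3 had levels of 10.71, 10.48 and 10.85 in swi3, against 9.47, 8.85 and 8.77 in rlm1, a difference of 1.65 ± 0.24. CRH1, which links chitin to glucan, was higher by 0.96 ± 0.10, and GFA1, the first enzyme of the path to chitin precursors, by 1.01 ± 0.06. DFG5, a putative glycosidase, was higher by 0.67 ± 0.07, the chitin synthase gene CHS3 by 0.62 ± 0.11 and the glucan synthase gene FKS1 by 0.30 ± 0.06. KTR2, a mannosyltransferase, was not called at -0.11 ± 0.12. It was low in both mutants, at 8.53 ± 0.18 in swi3 and 8.64 ± 0.01 in rlm1, against 10.82 ± 0.08 in the wild type (SD, n = 3).

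Among regulators that Rlm1 is linked to, PRM5, a membrane protein induced by wall stress, had levels of 11.89, 12.10 and 12.09 in swi3, against 9.56, 10.14 and 10.07 in rlm1, a difference of 2.11 ± 0.21. KDX1, a kinase-like relative of Slt2, had levels of 9.02, 9.0 and 9.46 in swi3, against 7.89, 7.62 and 7.55 in rlm1, a difference of 1.48 ± 0.16. Both groups of KDX1 arrays lay under the wild type, at 11.07 ± 0.13 (SD). YPK2, a kinase of the wall and membrane response, was higher by 1.55 ± 0.23, and PTP2, a phosphatase of MAP kinases, by 0.68 ± 0.09. The MAP kinase gene SLT2 itself had levels of 11.55, 11.61 and 11.77 in swi3, against 11.45, 11.002 and 10.95 in rlm1, a difference of 0.51 ± 0.14 (adjusted p = 0.01). BAG7, a GTPase-activating protein of Rho1, was higher by 1.26 ± 0.35 with both means under 7, and this call was lost without rlm1 number 2 or number 3 (adjusted p up to 0.0545). The phosphatase gene MSG5 was not called at -0.04 ± 0.15.

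**Figure D2:**
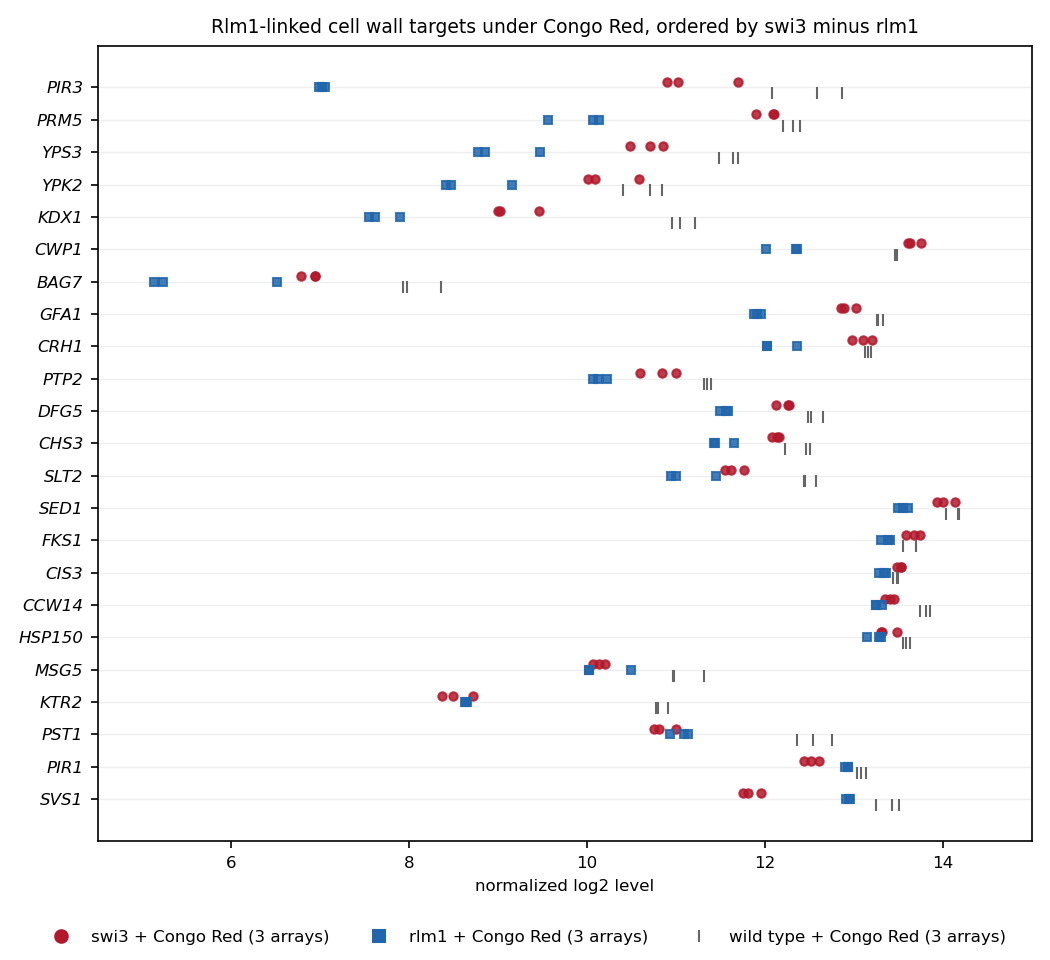
Normalized log2 levels (horizontal axis) of the 23 measured Rlm1-linked genes on each of the 3 swi3, 3 rlm1 and 3 wild-type arrays with Congo Red, ordered by swi3 minus rlm1. PIR3 is at the top (4.19) and SVS1 at the bottom (-1.10). Genes whose wild-type marks lie to the right of both mutants include PIR3, PTP2, KDX1, PST1 and KTR2.

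In the wider signalling list, 9 of 27 genes were higher and 5 lower, with a median of 0.11. The called share was 51.9%, against 37% of all features. Of the surface sensors, MTL1 was higher by 1.55 ± 0.13, WSC4 by 1.08 ± 0.28 and MID2 by 0.92 ± 0.08, WSC3 was also called (0.39), and SLG1 (-0.11) and WSC2 (-0.06) were not. KDX1 and BAG7, given above, lay between MTL1 and WSC4, and the Slt2 phosphatase gene SDP1 was higher by 0.68 ± 0.17. Lower members were the Rho1 exchange factor gene ROM2 (-0.33 ± 0.06), the GTPase-activating protein gene BEM2 (-0.43 ± 0.10), SAC7 (-0.28 ± 0.10), ZEO1 (-0.79 ± 0.24) and the transcription factor gene SWI4 (-0.83 ± 0.29). The last 3 each lost their call without at least 1 of the 6 arrays, which left 3 or 4 lower genes, and on the deposited values 6 were higher and 0 lower.

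Calcineurin is a second route by which wall and calcium stress reach transcription, through Crz1. Of 16 listed genes 15 were tested, with 3 higher, 4 lower and a median of -0.20. The called share was 46.7%, against 37% of all features. GSC2, the stress-induced glucan synthase subunit, had levels of 9.92, 9.59 and 10.13 in swi3, against 11.90, 11.93 and 11.88 in rlm1, a difference of -2.02 ± 0.16. CMK2, a calmodulin-dependent kinase, had levels of 10.03, 9.63 and 10.17 in swi3, against 11.27, 11.10 and 11.13 in rlm1, a difference of -1.22 ± 0.12. Both genes were low on all swi3 arrays. CRZ1 was at -0.60 ± 0.17, a call that was lost without swi3 number 2 (adjusted p = 0.062), and the sodium-phosphate transporter gene PHO89 was at -4.24 ± 0.46. CMK1 (0.96 ± 0.10), CRH1 and the calcium channel gene CCH1 (0.34 ± 0.09) were higher. Without swi3 number 3 the lower count was 7.

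For chitin, 7 of 17 genes were higher and 1 lower, with a median of 0.16. The called share was 47.1%, against 37% of all features. PCM1, which makes N-acetylglucosamine phosphate, was higher by 1.33 ± 0.08, with levels of 12.95, 12.84 and 13.15 in swi3, against 11.61, 11.68 and 11.68 in rlm1. The wild type, at 13.05 ± 0.09 (SD), lay among the swi3 arrays. CHS7, the export factor of Chs3, was higher by 0.52 ± 0.13, and the synthase gene CHS1 by 0.36 ± 0.09, while CHS2, the septum synthase, was at -0.32 ± 0.09. On the 6 arrays alone 4 were higher and 0 lower, and CHS1 and CHS2 lost their calls there (adjusted p = 0.0573 and 0.0579).

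Of 32 genes of beta-glucan synthesis and remodelling, 13 were higher and 6 lower, with a median of 0.11. KNH1, a factor of beta-1,6-glucan synthesis, was higher by 1.43 ± 0.19, the glucanosyltransferase gene GAS2 by 1.36 ± 0.20, and the exoglucanase gene EXG2 by 0.91 ± 0.09. The lower members beside GSC2 were led by SCW11, a glucanase made in daughter cells, with levels of 9.33, 9.67 and 9.13 in swi3, against 11.41, 11.44 and 11.44 in rlm1 (-2.05 ± 0.13). CRR1 (-1.24 ± 0.28) and SIM1 (-0.62 ± 0.09) were also lower.

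Of 28 tested mannoproteins and yapsins, 13 were higher and 5 lower, with a median of 0.19 and with 8 and 4 on the deposited values. TIR2, a cold- and anaerobiosis-induced mannoprotein, was higher by 2.77 ± 0.26, and its relative TIR4 was also higher (0.74), whereas TIR1 (-0.99 ± 0.19), TIR3 (-1.48 ± 0.34) and TIP1 (-1.46 ± 0.28) were lower. SPI1, a stress-induced wall protein, was higher by 1.96 ± 0.12 and the yapsin gene YPS6 by 1.48 ± 0.19. DAN1, an anaerobic mannoprotein, was higher by 1.89 ± 0.48, with levels of 8.95, 8.70 and 7.50 in swi3, against 7.44, 5.99 and 6.06 in rlm1. Its highest rlm1 array, number 1, lay next to its lowest swi3 array.

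Most other transcripts of the SWI/SNF complex were not called. Among its 11 genes besides SWI3, SWI1 (0.31 ± 0.10) was called higher and SNF12 (-0.30 ± 0.09) lower, and both calls were lost without rlm1 number 1 or without swi3 number 3 (SWI1 also without swi3 number 1). The ATPase gene SNF2 was not called, at -0.04 ± 0.11. RSC is a related and more abundant remodeller. Of its 13 tested genes, 2 were higher and 4 lower, or 46.2% called against 37% of all features. RSC8, the RSC relative of SWI3, had levels of 10.31, 10.42 and 10.52 in swi3, against 11.75, 11.74 and 11.67 in rlm1, a difference of -1.31 ± 0.14. The wild type lay with swi3 here, at 10.21 ± 0.20 (SD, n = 3). The ATPase gene STH1 (-0.73 ± 0.11) and SFH1 (-0.42 ± 0.11) were lower, and RSC6, on chromosome III, was higher by 0.93 ± 0.07. Without rlm1 number 1, swi3 number 2 or swi3 number 3 only 1 RSC gene was higher.

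Of 20 genes known to need SWI/SNF, 10 were lower and 3 higher in swi3, with a median of -0.37. The list does not separate genes that need it for induction from genes that need it for repression. Beside PHO84, HO, PHO5 and ARO9, the lower members included the cell separation gene EGT2 (-1.59 ± 0.12) and CHA1, a serine deaminase on chromosome III (-1.26 ± 0.08). CHA1 was thus lower where most features of its chromosome were higher. The higher members were RNR3, the serine pathway gene SER3 (2.26 ± 0.20) and SUC2, the sucrose invertase (1.10 ± 0.11). SUC2 had levels of 10.83, 10.54 and 10.53 in swi3, against 9.50, 9.49 and 9.62 in rlm1.

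Genes of phosphate acquisition formed the list with the lowest median. Of 19 tested, 14 were lower and 2 higher in swi3, against 18.4% of all features lower, and the median was -1.45. Under low phosphate many genes of this kind, though not every member of the list, are driven by the activator Pho4. After PHO84, SPL2, a regulator of low-affinity phosphate uptake, had levels of 6.01, 5.92 and 5.68 in swi3, against 12.03, 11.74 and 11.75 in rlm1 (-5.97 ± 0.28). The secreted acid phosphatase gene PHO5 had levels of 8.02, 7.94 and 8.09 in swi3, against 12.17, 11.79 and 11.79 in rlm1 (-3.90 ± 0.41). PHO89 had levels of 8.77, 8.11 and 9.04 in swi3, against 13.12, 12.76 and 12.77 in rlm1. All swi3 arrays were low for these genes, and in the wild type number 3 stood below the other arrays for SPL2, PHO5 and PHO89. PHO11, another acid phosphatase whose probe set is shared with related sequences, was at -4.65 ± 0.20 and PHM6 at -3.56 ± 0.20. The exceptions were PHM7, higher by 2.12 ± 0.25, and GIT1, a glycerophosphoinositol transporter on chromosome III, at 0.81 ± 0.30. GIT1 had both means under 7, and only without rlm1 number 3 did it keep its call when 1 array was left out.

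Genes of daughter cell separation were lower as well, in 10 of 13 tested, with 0 higher and a median of -1.26. PRY3 had levels of 9.38, 9.0 and 8.78 in swi3, against 11.43, 10.76 and 10.83 in rlm1 (-1.95 ± 0.20). DSE4, a glucanase of the septum, had levels of 9.03, 8.87 and 8.86 in swi3, against 10.60, 10.68 and 10.71 in rlm1 (-1.75 ± 0.07). Every swi3 array was below every rlm1 array for both, and 47.8% of all features had no overlap in either direction. DSE1 (-1.87 ± 0.21) and the bud site marker gene BUD9 (-1.28 ± 0.19) were lower, and SCW11 and EGT2, given above, belong here too.

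Among 26 genes of G1 and S phase, 9 were lower and 2 higher, with a median of -0.11. The called share was 42.3%, near the 37% of all features. The G1 cyclin gene CLN2 was at -0.82 ± 0.15, the S phase cyclin gene CLB6 at -0.71 ± 0.16 and the repressor gene YOX1 at -0.68 ± 0.13. The higher members were CDC21, thymidylate synthase (0.43 ± 0.07), and RNR1 (0.22 ± 0.05). On the deposited values 6 were lower and 0 higher, and RNR1 was not called on the 6 arrays alone (adjusted p = 0.0697). Of 10 tested histone genes (20% called), HHO1 (0.22 ± 0.06) was higher and HTA1 (-0.36 ± 0.09) lower, and neither was called on the deposited values.

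In the mating genes, 2 of 7 a-specific genes were lower, or 28.6% called against 37% of all features. BAR1, the protease that degrades alpha-factor, had levels of 9.43, 9.29 and 8.25 in swi3, against 10.89, 11.29 and 11.23 in rlm1 (-2.15 ± 0.34). STE6, the exporter of a-factor, was at -0.56 ± 0.17, a call that was lost without rlm1 number 2 or swi3 number 3 (adjusted p up to 0.0771). Of 19 pheromone-induced genes, 3 were lower and 1 higher (21.1% called). PRM4 was at -2.12 ± 0.17, the cell cycle arrest gene FAR1 at -1.72 ± 0.39 and SST2, which damps the pheromone signal, at -1.42 ± 0.29. KAR4, a regulator of nuclear fusion genes on chromosome III, was at 0.88 ± 0.18. For BAR1, FAR1 and SST2, swi3 number 3 was lower than the other swi3 arrays.

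Iron uptake genes, which Aft1 drives when iron is short, were lower in 12 of 22 cases and higher in 0, with a median of -1.23. Here swi3 number 3 stood apart. TIS11, which destabilises mRNAs of iron-using proteins, had levels of 6.73, 6.29 and 9.97 in swi3, against 10.85, 11.62 and 11.63 in rlm1 (-3.71 ± 0.90). The siderophore transporter gene ENB1 had levels of 8.48, 8.17 and 8.95 in swi3, against 11.28, 11.80 and 11.81 in rlm1 (-3.09 ± 0.33). ARN2 (-3.40 ± 0.55) and the reductase gene FRE1 (-2.31 ± 0.37) were also lower. FIT2, a wall mannoprotein that retains siderophores, had levels of 9.06, 8.70 and 12.49 in swi3, against 12.87, 13.30 and 13.23 in rlm1, and SIT1 had 8.12, 7.94 and 11.93 in swi3, against 11.94, 12.44 and 12.34 in rlm1. Both calls were lost on the 6 arrays alone (adjusted p = 0.0688 and 0.0946). Without any 1 of rlm1 numbers 1, 2 or 3 or swi3 numbers 1 or 2, the lower count was between 5 and 7, and without swi3 number 3 it was 14.

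The Ehrlich pathway turns amino acids into fusel alcohols. Of its 13 genes, 6 were lower and 1 higher in swi3. Beside ARO10, the aromatic aminotransferase gene ARO9 had levels of 7.35, 7.47 and 6.71 in swi3, against 10.78, 10.66 and 10.70 in rlm1 (-3.54 ± 0.22). The acetyltransferase gene ATF2 was at -1.55 ± 0.21 and its relative ATF1 at 0.55 ± 0.13. ARO80, the activator of ARO9 and ARO10, was at -0.24 ± 0.09, a call that was lost without any 1 array but swi3 number 3 (adjusted p up to 0.152). On the deposited values 4 genes of the list were lower and 0 higher.

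Amino acid permeases were divided, with 7 of 20 higher, 6 lower and a median of -0.16 (4 and 5 on the deposited values). The general permease gene GAP1 had levels of 11.75, 11.53 and 11.15 in swi3, against 8.69, 8.77 and 8.69 in rlm1 (2.76 ± 0.21), and lay on the same side as PUT4. The S-methylmethionine permease gene MMP1 was higher by 1.5 ± 0.20. On the other side, the permease genes TAT1 (-2.62 ± 0.21) and TAT2 (-1.44 ± 0.07) for aromatic amino acids, BAP2 (-0.95 ± 0.12), BAP3 (-0.47 ± 0.06) and the amino acid sensor gene SSY1 (-0.64 ± 0.11) were lower. Amino acid biosynthesis genes were also mixed: 14 of 45 were higher and 9 lower, against 3 and 7 on the deposited values. ARG3, of arginine synthesis, was higher by 1.82 ± 0.13, while LYS20 (-1.47 ± 0.11), LYS9 (-1.21 ± 0.12) and LYS12 (-0.66 ± 0.06) were lower. The other lysine genes of the list did not share this: LYS21, which encodes the same step as LYS20, was higher (0.37), and LYS1 (0.26), LYS2 (0.28) and LYS4 (-0.44) were not called. HIS4 (-1.11 ± 0.11) was lower and ILV6 (0.99 ± 0.11) higher, both on chromosome III. Of the 45 biosynthesis genes, 3 lie on this chromosome, and all 3 were called.

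Genes of sulphate assimilation and methionine synthesis were higher in 12 of 24 cases and lower in 1, with a median of 0.35. MET2 had levels of 10.29, 10.64 and 10.36 in swi3, against 7.15, 7.44 and 7.44 in rlm1. MET28, a regulatory subunit of the pathway's activator complex, was higher by 3.06 ± 0.33, the ATP sulfurylase gene MET3 by 2.57 ± 0.23 and the methionine synthase gene MET6 by 1.82 ± 0.34. Arrays of the strains did not overlap for any of these 4 genes, as for 47.8% of all features. CYS4, cystathionine beta-synthase, was lower (-0.43 ± 0.07).

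In sugar use, 6 of 8 tested genes of sucrose and maltose were higher and 0 lower, with a median of 0.97. IMA1, isomaltase, was higher by 2.54 ± 0.34 and the maltose activator gene MAL33 by 1.66 ± 0.29. On the deposited values 3 were higher and 1 lower, and after median centring 4 were higher and 1 lower. The genes share close sequence relatives, so signals of the family may not be separate. Among 17 hexose transporters, HXT4 (1.58 ± 0.37), HXT2 (0.81 ± 0.11), HXT11 (1.78 ± 0.47, both means under 7) and the glucose sensor gene SNF3 (1.14 ± 0.09) were higher. HXT1, the transporter of high glucose, was lower (-1.30 ± 0.18). In this list 29.4% were called, against 37% of all features. The list's median was 0.09, and it was -0.21 after median centring and -0.29 on the deposited values.

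Of 24 glucose-repressed genes, 14 were higher and 1 lower, with a median of 0.65 (9 and 2 on the deposited values). Chromosome III holds 3 genes of this list, of which 2 were called. ALD4, mitochondrial aldehyde dehydrogenase, had levels of 12.85, 13.05 and 13.15 in swi3, against 10.77, 11.09 and 11.15 in rlm1 (2.01 ± 0.18). PCK1, of gluconeogenesis, was higher by 2.08 ± 0.25, the lactate transporter gene JEN1 by 1.64 ± 0.21 and the hexokinase gene HXK1 by 1.31 ± 0.18. The catalase gene CTA1 was lower (-0.93 ± 0.21).

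Oxidative phosphorylation had the highest share of calls of the lists. Of 36 genes, 33 were higher and 1 lower in swi3, against 18.6% of all features higher, and the median was 0.66. The count without any 1 array was 29 to 31 higher, and on the deposited values it was 15. QCR2, a subunit of complex III, had levels of 11.94, 11.97 and 11.73 in swi3, against 10.66, 10.53 and 10.61 in rlm1 (1.28 ± 0.13). ATP14 of the ATP synthase had levels of 11.62, 11.86 and 11.74 in swi3, against 10.66, 10.64 and 10.66 in rlm1 (1.08 ± 0.07). For both, all swi3 arrays were above all rlm1 arrays, and 47.8% of all features had no overlap in either direction. COX7 (1.09 ± 0.19), QCR6 (1.07 ± 0.12) and the cytochrome c gene CYC1 (1.11 ± 0.31) were higher. CYC7, the second cytochrome c, was higher by 3.07 ± 0.64, with rlm1 number 1 at 5.47 and the other rlm1 arrays at 7.30 and 7.51. The exception was CYT1, cytochrome c1, at -0.95 ± 0.18, with levels of 9.18, 9.57 and 9.45 in swi3, against 10.04, 10.52 and 10.49 in rlm1.

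Trehalose and glycogen genes were higher in 6 of 18 cases and lower in 0, or 33.3% called against 37% of all features. The higher genes included TSL1 (1.07 ± 0.23) and the glycogen branching enzyme gene GLC3 (1.04 ± 0.18), and 1 was higher on the deposited values. General stress genes were divided, with 10 of 35 higher and 8 lower, against 3 and 8 on the deposited values. HSP12 had levels of 12.003, 12.66 and 13.19 in swi3, against 9.64, 9.39 and 9.51 in rlm1, and the reductase gene GRE2 was higher by 1.53 ± 0.15. On the other side, beside GPX2 and YGP1, GAD1 (-0.90 ± 0.19) and GCY1 (-0.82 ± 0.09) were lower.

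In the list of ribonucleotide reductase and DNA damage genes, 8 of 13 were higher and 2 lower, with a median of 0.42. RNR3 had levels of 12.31, 12.30 and 11.51 in swi3, against 9.05, 8.64 and 8.52 in rlm1. HUG1 had levels of 12.10, 11.71 and 11.85 in swi3, against 9.60, 7.99 and 8.0 in rlm1. RNR2, the small subunit, had levels of 14.03, 13.97 and 13.97 in swi3, against 13.10, 12.69 and 12.78 in rlm1 (1.13 ± 0.12). The strains did not overlap for these genes, as for 47.8% of all features, and rlm1 number 1 was the highest rlm1 array in each. The repair gene RAD54 was higher by 0.81 ± 0.10. DIN7, a mitochondrial nuclease, was lower (-1.06 ± 0.15). On the deposited values 5 were higher and 1 lower.

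Ribosome biogenesis genes were lower in 20 of 46 cases and higher in 0, with a median of -0.32. The called share was 43.5%, near the 37% of all features, of which 18.4% were lower. The subunits of RNA polymerase I RPA34 (-0.83 ± 0.22) and RPA49 (-0.60 ± 0.09) and the processing factor genes MAK16 (-0.71 ± 0.19) and IMP4 (-0.54 ± 0.09) led. This count depended on the arrays and the scale: 13 were lower without rlm1 number 1 or without swi3 number 3, 13 after median centring and 6 on the deposited values. The 25S ribosomal RNA probe sets were also lower in swi3 than in rlm1, as given above, with the wild type with the dye nearer to swi3. Their part in this result was not tested.

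Of 22 drug efflux genes, 12 were lower and 4 higher, with a median of -0.48. PDR5, the main multidrug transporter, had levels of 11.75, 10.83 and 11.79 in swi3, against 12.97, 13.10 and 13.03 in rlm1 (-1.57 ± 0.19). QDR2 was at -2.72 ± 0.16, PDR15 at -1.70 ± 0.13, the polyamine transporter gene TPO4 at -1.91 ± 0.25 and the activator gene PDR3 at -1.29 ± 0.10. PDR10, a close relative of PDR5, was higher by 1.64 ± 0.12. TPO2 was higher by 1.25 ± 0.10, and another probe set for it gave 11.46 in swi3 and 6.42 in rlm1. Of 22 phospholipid genes, 6 were lower and 2 higher, and on the deposited values 2 were lower and 1 higher. The called share was 36.4%, against 37% of all features. CHO2, which methylates phosphatidylethanolamine, was lower (-1.88 ± 0.10), and OLE1, the fatty acid desaturase, was higher by 0.63 ± 0.10. Of 23 genes of the unfolded protein response and folding in the endoplasmic reticulum, 4 were higher and 2 lower, with EUG1 at 0.98 ± 0.12 and the activator gene HAC1 at -0.86 ± 0.12. Without swi3 number 3, 7 of them were higher, and with every array 26.1% were called, below the 37% of all features. Chromosome III holds 1 gene of this list, which was called.

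**Figure D3:**
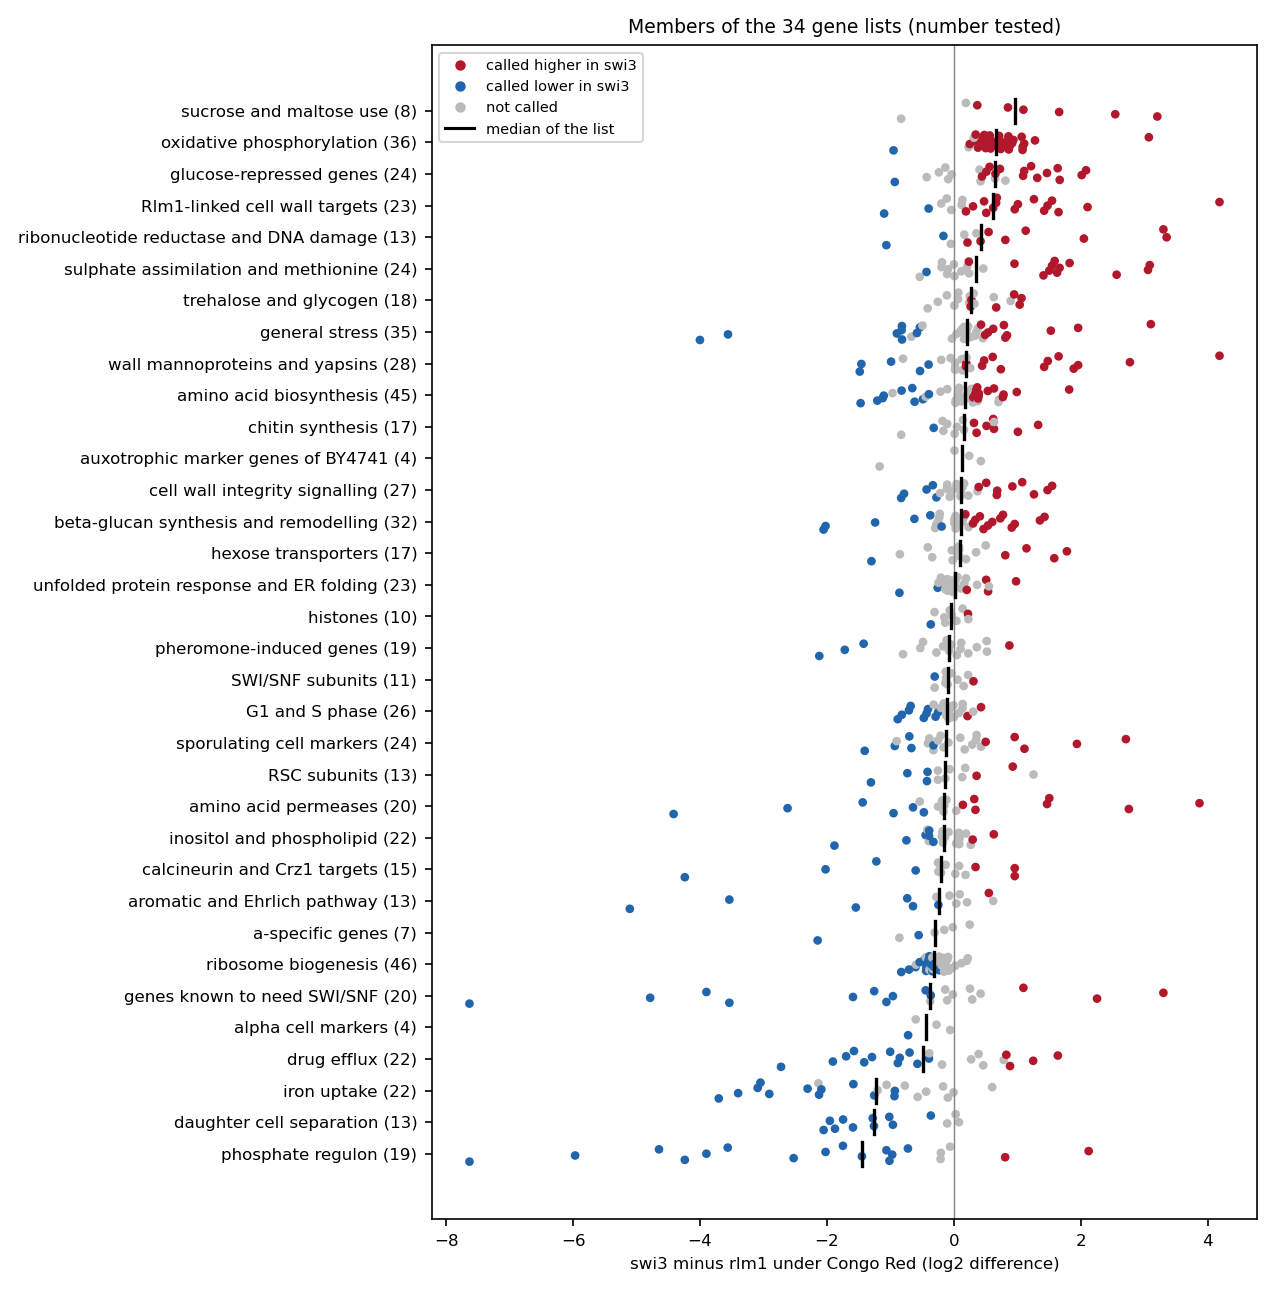
Each point is a tested member of 1 of 34 gene lists, placed by its log2 difference swi3 minus rlm1 under Congo Red (horizontal axis), and the black bar is the list's median. The medians run between 0.97 for sucrose and maltose use and -1.45 for the phosphate regulon, and 33 of 36 oxidative phosphorylation genes are called higher.

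Markers of other cell types were measured as a check of the labelled strain. MF(ALPHA)1, the alpha-factor gene, stood at 4.67, 4.40 and 4.52 in swi3, against 4.92, 4.53 and 4.31 in rlm1. Of 4 alpha markers SAG1 was lower (-0.72 ± 0.13), 3 had both means under 7, and 3 were lower after median centring. Further, the a-cell receptor gene STE2 stood at 12.45 ± 0.40 in swi3 and 12.60 ± 0.10 in rlm1 (SD, n = 3). Other a-specific genes did not all stay level: BAR1 and STE6 were lower, as given above, and the list's median was -0.30. Of 24 markers of sporulating cells, 5 were higher and 5 lower, and 15 had both means under 7. The called share was 41.7%, near the 37% of all features. SPO20, a membrane fusion protein of spores, was higher by 2.71 ± 0.14 and SGA1, a sporulation glucoamylase, by 1.94 ± 0.31. On the other side SPS4 (-1.41 ± 0.24) and ZIP1 (-0.93 ± 0.28) were lower, and the median of the list was -0.12. After median centring 2 were higher and 7 lower. The 4 auxotrophic marker genes of BY4741 were not called by limma, and after median centring LEU2 and MET17 were called lower (adjusted p = 0.0491 and 0.0011). HIS3 was not low in any strain, at 11.33 ± 0.15 in swi3, 10.91 ± 0.09 in rlm1 and 10.81 ± 0.44 in the wild type (SD, n = 3), while MET17 and URA3 had both mutant means under 7. LEU2, on chromosome III, had levels of 5.89, 5.69 and 5.84 in swi3, against 8.66, 6.27 and 6.01 in rlm1, with rlm1 number 1 above all others.

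On chromosome III, 111 of 147 features were higher in swi3 and 5 lower, which is 75.5% higher against 18.6% of all features. This pattern was noticed after the values were seen. The quartiles of the features lay at 0.44 and 1.01, and the median was 0.73 over 58 features of the left arm and 0.72 over 89 of the right arm. Without the dye the median was 0.70. Set against the wild-type mean of the same treatment, the median of the chromosome was 0.67, 0.66 and 0.73 on the 3 swi3 arrays with the dye and 0.72, 0.69 and 0.69 without it. On the 6 rlm1 arrays it was between -0.05 and 0.03. The shift was thus present on every swi3 array and on no rlm1 array. It remained at 0.75 after median centring and 0.67 on the deposited values. Outside the chromosome 942 features were higher and 1036 lower. The number of chromosome copies was not measured.

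**Figure D4:**
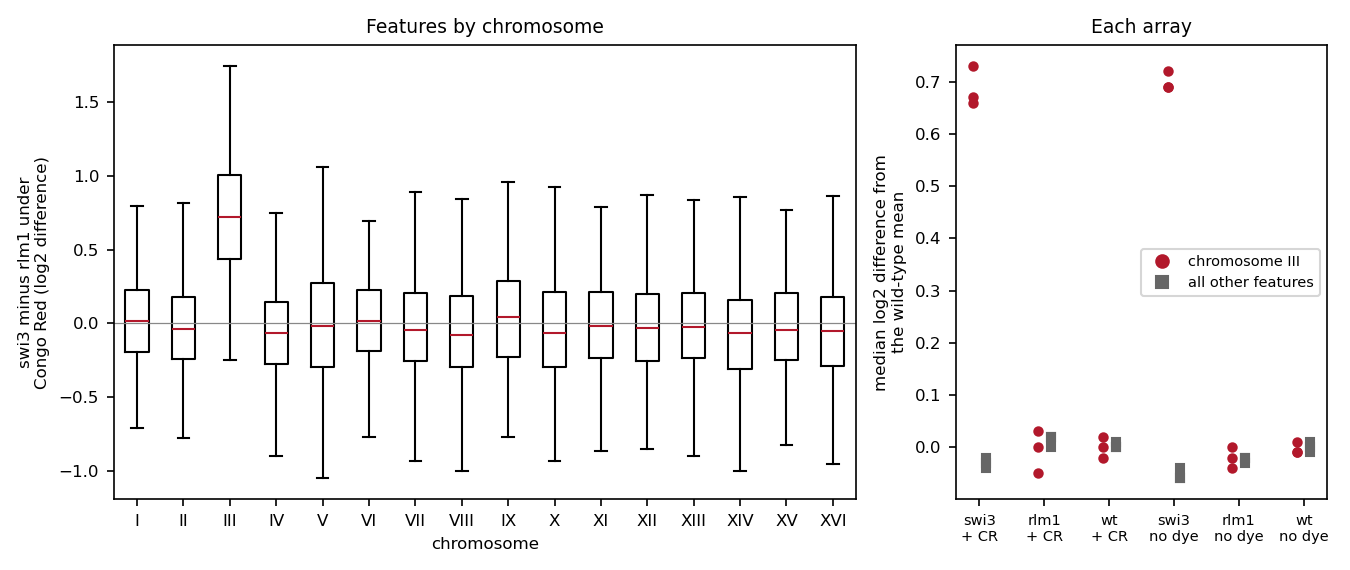
Left, boxes of swi3 minus rlm1 under Congo Red (log2 difference, middle line the median, box the quartiles, whiskers to 1.5 box lengths, outliers not drawn) for the features of each chromosome. Right, the median difference of each array from the wild-type mean of the same treatment, for chromosome III and for all other features. Chromosome III lies at 0.72 in the left panel, and only the 6 swi3 arrays lie above 0.6 in the right panel.

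Most calls under the dye were also made without it. Of the features higher in swi3 under the dye, 833 were also higher without it (79.1%), and of those lower, 760 were also lower without it (73.0%). These comparisons use different arrays of the same strains but are not independent. Same-numbered arrays with and without the dye deviated together (r of 0.464 to 0.885), and both comparisons share 1 fit. A test of the difference itself, swi3 minus rlm1 under the dye less the same without it, called 17 of 5660 features (0.3%), 11 higher (0.194%) and 6 lower (0.106%), while 241 had an unadjusted p under 0.05. With same-numbered arrays of a strain as pairs, 24 were higher and 16 lower, and with these pairs as a random block 101 and 60. So the count depends strongly on how the pairs are treated. Calls with pairs below are of the first kind. On the arrays of these 2 strains alone PIR3 and PST1 were called higher and GSC2, CMK2 and DSE4 lower, and on the deposited values the counts were 1 and 0. Leaving out 1 array gave 5 to 10 higher and 4 to 8 lower.

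Wall genes linked to Rlm1 led the higher side. PIR3 without the dye averaged 8.05 ± 0.32 in swi3 and 7.16 ± 0.03 in rlm1, and with it 11.21 ± 0.43 in swi3 and 7.02 ± 0.04 in rlm1 (SD, n = 3). The strain difference was larger by 3.30 ± 0.30 with the dye (SE, adjusted p = 0.000158). KDX1 averaged 7.54 ± 0.14 in swi3 and 7.56 ± 0.28 in rlm1 without the dye, which gave 1.49 ± 0.23 (adjusted p = 0.00753). PST1 differed in another way. It averaged 9.17 ± 0.19 in swi3 and 10.99 ± 0.11 in rlm1 without the dye, and 10.86 ± 0.13 in swi3 and 11.05 ± 0.11 in rlm1 with it, so that the strains differed less under the dye (1.62 ± 0.16, adjusted p = 0.000226). CWP1 (0.65 ± 0.13, adjusted p = 0.0457) and PTP2 (0.68 ± 0.13, adjusted p = 0.0438) were the other Rlm1-linked calls, and PTP2 was not called with pairs (adjusted p = 0.112). SRL3 was at 1.35 ± 0.24 (adjusted p = 0.0276), FMP33 at 0.98 ± 0.15 and YJL132W at 0.91 ± 0.17. With pairs FMP33 and YJL132W were not called (adjusted p = 0.052 and 0.0569).

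On the lower side stood GSC2 and CMK2, both on the calcineurin list. GSC2 without the dye averaged 9.72 ± 0.15 in swi3 and 10.003 ± 0.03 in rlm1, and with it 9.88 ± 0.27 in swi3 and 11.90 ± 0.03 in rlm1 (SD, n = 3). The change in the strain difference was -1.74 ± 0.22 (SE, adjusted p = 0.00279). CMK2 averaged 9.81 ± 0.10 in swi3 and 9.69 ± 0.15 in rlm1 without the dye, which gave -1.34 ± 0.17 (adjusted p = 0.00279). YSR3, a phosphatase of sphingoid bases, was at -1.61 ± 0.24 (adjusted p = 0.00753), DIA1, linked to invasive growth, at -1.27 ± 0.22 (adjusted p = 0.0218) and DSE4 at -0.73 ± 0.10 (adjusted p = 0.00355). YPT53, a Rab GTPase of endocytosis, was at -1.74 ± 0.34 with all 4 group means under 7, and was not called with pairs (adjusted p = 0.0741). PHO89 (-1.42 ± 0.65) and ARO10 (-1.15 ± 0.27) were not called here, with adjusted p = 0.999 and 0.167, and were called with pairs (adjusted p = 0.00545 and 0.0132).

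**Figure D5:**
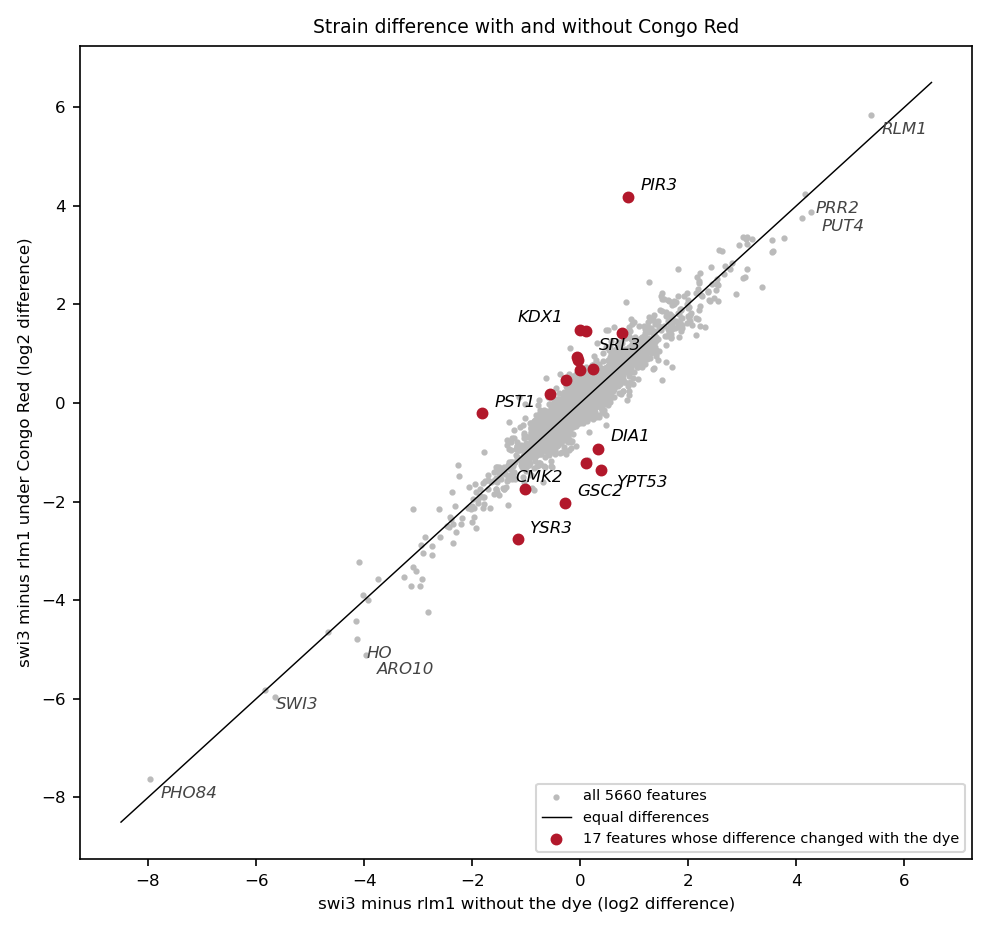
Each grey point is 1 of 5660 features, with swi3 minus rlm1 without the dye on the horizontal axis and with Congo Red on the vertical axis (log2 differences), and the line marks equal differences. Of the 17 red features, whose strain difference changed with the dye, PIR3 lies farthest above the line (4.19 with the dye) and GSC2 and YSR3 lie below it.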

How the data were processed

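Biotin-labelled RNA was measured on Affymetrix yeast arrays. The authors deposited 1 value per probe set, and per the submitters' processing notes GCRMA was used. From their range, these deposited values are on a log2 scale. The GCRMA version, the arrays it was run on together and the scan batches are not given in the sources used here. Because array medians differed, all 5814 probe sets were quantile-normalized over the 18 arrays, and 98 controls were then removed. The platform annotation gave 1 gene symbol for 5498 of the 5716 that were left and none for 218 (12 symbols were updated through NCBI assembly R64). Where a gene had more than 1 probe set, the brightest was kept, and 49 were dropped. A level of 4 on at least 3 arrays was required, which left 5660 features, 5442 of them named.

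A model with 1 mean per group was fitted with limma 3.58.1 under R 4.3.3, using every array so that groups share the estimate of spread. P-values were adjusted over all features by the Benjamini-Hochberg method, with 0.05 as the limit for a call. They measure the spread between these samples only. The code was tested on simulated data. No 2 arrays held identical values, and 3 arrays per group limit the precision. Same-numbered arrays with and without the dye deviated together in swi3 (r of 0.687, 0.464 and 0.693) and rlm1 (0.885, 0.818 and 0.806), so they were taken as pairs in a further fit of the change with the dye. The labels do not state such pairs, and rlm1 numbers 2 and 3 also correlated with each other (0.713 and 0.827). Other settings tried were median centring, the deposited values, the compared arrays alone, array weights, blocks, filters and left-out arrays.

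Genes were named by a rule: SWI3 and RLM1, then the 14 largest differences in each direction that were also called on the 6 arrays alone and after median centring, with no overlap of arrays. All Rlm1-linked and SWI/SNF genes, up to 6 calls per direction of each other list (34 lists in all) and the 6 largest changes of the difference per direction were added. Neighbours and mating-type genes served as checks. Members and lists were chosen with earlier results of these data known. Chromosomes and neighbouring genes were taken from R64 and arms from the systematic gene names. No sequences were used here. WSC2, WSC3, SLG1, TIR4, LYS1, LYS2, LYS4, LYS21, HIS3, MET17 and URA3 fall outside the rule and were named after their values were seen, to complete the groups given.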

Additional observations from a re-analysis of the deposited data

Results flagged for a closer look

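A strain difference under the dye that differed from the one without it, by a test of the difference itself, was found for 17 features. The differences of differences (swi3 minus rlm1 with the dye less the same without it, log2) were 3.30 for PIR3, 1.62 for PST1, 1.49 for KDX1, 1.35 for SRL3, 0.98 for FMP33, 0.91 for YJL132W, 0.72 for SMF1, 0.68 for PTP2, 0.65 for CWP1 and 0.47 for ECM7. An unnamed probe set stood at 0.74. On the lower side they were -1.74 for YPT53, -1.74 for GSC2, -1.61 for YSR3, -1.34 for CMK2, -1.27 for DIA1 and -0.73 for DSE4. SMF1 and ECM7 were named here because they passed this test, after their values were seen, and ECM7 was not called with pairs (adjusted p = 0.0608) or after median centring (adjusted p = 0.0901).

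A signal outside the yeast genes also stood out. One reporter probe set was at 13.51 or higher on the 6 mutant arrays with the dye, against at most 4.89 in the wild type with the dye. Without the dye it was at 13.65 to 13.72 in the mutants and at 4.57 to 4.87 in the wild type.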

How the results depend on the processing

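With the dye, 1053 features were higher and 1041 lower. The deposited values gave 381 and 534, the 6 arrays alone 658 lower, and a replicate block over the numbers 553 lower, where same-numbered swi3 and rlm1 arrays correlated at 0.233, -0.067 and 0.256, so the numbers were not taken as pairs there. Leaving out 1 array gave 927 to 1001 higher and 829 to 925 lower. For the change of the strain difference with the dye, 11 were higher and 6 lower. Median centring gave 6 higher, the deposited values 1 and 0, the arrays of both strains alone 2 and 3, array weights 45 and 21, pairs as a replicate block 24 and 16, pairs as a random block 101 and 60. Leaving out 1 array gave 5 to 10 higher and 4 to 8 lower. Leaving out rlm1 number 1 on the compared arrays alone (chosen after seeing the data) gave 5 and 2. Of 246 named genes called with the dye, 0 changed sign under these alternatives, and 154 kept their call throughout. Of the 12 genes named for the change with the dye, 1 kept its call throughout. Among the 246, the deposited values lost 80, the replicate block 44 and the 6 arrays alone 34. Signs turned only in genes that were not called: MSG5 (0.098 with array weights and 0.118 in 3 settings without rlm1 number 1, with -0.122 to 0.118 over single arrays left out), SNF2 (0.012 after median centring, 0.116 with weights, 0.104 without rlm1 number 1 and 0.009 without swi3 number 3, with -0.145 to 0.104 over single arrays left out) and SNF6 (-0.003 on the deposited values). A filter at a level of 7 removed some named genes, which then had no value. The cause of these shifts was not tested. Levels under 7 leave the size of a difference uncertain.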
